A study of Mus musculus with 8 samples.

Results

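The large histone gene cluster of the mouse, Hist1, lies in 2.2 Mb of chromosome 13 (chr13:21700000-23900000, mm9), and the binding of 3 chromatin remodelers along it is described here. Every hotspot, an interval enriched for sequence tags in chromatin immunoprecipitation sequencing, was taken when its start fell between those positions, whatever its height. That rule gave 875 of the 820608 hotspots in the 6 lists of the study, and merging those that overlapped by at least 1 bp gave 403 of 532751 regions. Each list came from 1 library of untreated 3134 cells, a murine mammary epithelial line grown from a subclone. The antibodies were a monoclonal one to Brg1, one to CHD4 and one to Snf2h, with 2 libraries each, and 2 libraries of input DNA were not analysed here. The labels do not say that the libraries of an antibody came from separate cultures, so every p-value measures only the spread between these libraries, which may be technical.

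All 3 are ATPases that use ATP to slide or evict nucleosomes. Brg1 drives SWI/SNF complexes, CHD4 belongs to NuRD, a complex that also carries histone deacetylases, and Snf2h belongs to the ISWI family, which spaces nucleosomes. Hist1 holds the main clusters of replication-dependent histone genes, which make the core histones H2A, H2B, H3 and H4 and the linker histone H1. These genes have no introns, are transcribed mainly in S phase and are gathered in nuclear foci called histone locus bodies. In the mouse the cluster is broken by a block of vomeronasal receptor genes of the Vmn1r family, which are expressed in sensory neurons of the vomeronasal organ and are silent in most other cells.

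The order of genes was read from RefSeq on GRCm38.p6, a later assembly than mm9, so it gives names and order only and no hotspot was assigned to a gene. From H2bc13 to H2ac1 that annotation lists 255 genes: 56 histone genes, 77 tRNA genes, 75 Vmn1r genes and 47 others. Of the Vmn1r genes 40 have a pseudogene symbol (-ps), although Vmn1r-ps103 among them is annotated as protein-coding. The histone genes include the pseudogenes H2ac14 and H2ac5-ps. Before the first Vmn1r gene stand 24 histone genes, among them H2ac13, H2bc14 and H1f5, with 32 tRNA genes and 9 others. After the last stand 32 histone genes, with 45 tRNA genes and 26 others such as Hfe, the gene mutated in hereditary haemochromatosis, and Btn1a1, a butyrophilin of the milk fat globule. Between them stand the 75 Vmn1r genes and 12 others, with 0 histone genes and 0 tRNA genes. The locus was described in parts set by position, from general knowledge of this layout and not from an mm9 annotation, and how well the middle matches the Vmn1r block on mm9 was not tested: the outer 500 kb on each side, called the ends, and the 1.2 Mb between them (chr13:22200000-23400000), called the middle.

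Promoters from both kinds of gene are shown as examples chosen after their letters were seen. Their contrast is not that of all promoters of these genes, whose shares follow the runs. Each run is the 150 bases upstream of the annotated start in RefSeq, GRCm38.p6. Capitals mark the pentamer CCAAT, the TATA box core TATAA and the octamer ATTTGCAT, each read on both strands, which are known elements of histone promoters. H2ac13 makes an H2A protein and H2bc14 an H2B protein, H1f5 makes a linker histone, and Vmn1r188 is a receptor gene of the middle block.
H2ac13: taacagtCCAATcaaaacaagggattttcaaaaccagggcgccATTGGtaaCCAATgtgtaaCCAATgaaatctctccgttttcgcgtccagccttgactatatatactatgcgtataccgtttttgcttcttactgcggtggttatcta
H2bc14: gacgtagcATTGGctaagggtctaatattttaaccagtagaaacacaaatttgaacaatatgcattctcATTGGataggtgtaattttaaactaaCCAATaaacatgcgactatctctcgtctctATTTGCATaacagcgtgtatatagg
H1f5: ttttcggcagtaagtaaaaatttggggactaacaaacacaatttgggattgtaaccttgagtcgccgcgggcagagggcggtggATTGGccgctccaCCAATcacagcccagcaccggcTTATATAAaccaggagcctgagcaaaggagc
Vmn1r188: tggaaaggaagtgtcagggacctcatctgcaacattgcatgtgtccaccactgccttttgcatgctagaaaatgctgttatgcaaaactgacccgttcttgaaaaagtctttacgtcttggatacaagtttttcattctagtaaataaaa
The printed runs hold 4 matches to CCAAT in H2ac13, 3 in H2bc14, 2 in H1f5 and 0 in Vmn1r188. H2bc14 alone of these 4 has an octamer, and the 2 TATAA matches of H1f5 overlap because the motif was read on both strands. Over the 250 bases before the start, CCAAT was present in 44 of 52 histone promoters with a sequence (84.6%), in 11 of 33 Vmn1r promoters (33.3%) and in 33.8% of all 32851 promoters. TATAA was present in 65.4% of the histone promoters, in 18.2% of the Vmn1r promoters and in 22.8% of all. The octamer was present in 21.2%, 9.09% and 1.6%, and the histone promoters with it were 5 of 13 H2ac and 6 of 14 H2bc windows. CCAAT was found in all 13 H2ac, 14 H2bc, 7 H3c and 6 H1f windows but in only 3 of 11 H4c windows. The median number of CpG dinucleotides was 9 in the histone windows, 1 in the Vmn1r windows and 6 in all. The windows are not independent, since neighbouring genes can share one: the table entries of H2ac13 and H2bc13, which run from 250 bases before to 50 after the start, share 272 bases on opposite strands. A match is a description of the letters, and binding of any factor to it was not measured.

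All 6 lists followed the same layout: hotspots crowded in both ends and thinned in the middle. The ends of the locus held 69 and 181 Brg1 hotspots, 78 and 180 CHD4 hotspots and 60 and 111 Snf2h hotspots in replicates 1 and 2. The middle, although longer than the ends together, held 40 and 41 for Brg1, 7 and 56 for CHD4, with 13 and 39 for Snf2h. Hotspots per Mb were thus 2.07 and 5.30 times higher in the ends than in the middle for Brg1, 13.4 and 3.86 times for CHD4 and 5.54 and 3.42 times in the Snf2h lists. The 6 libraries lay on the same side, and the mean log2 ratio of middle to ends was -2.23 ± 0.90 (SD, n = 6). An exact two-sided sign-flip permutation test over the 6 libraries gave p = 0.0312, the smallest 6 libraries allow. The locus and its parts were chosen with earlier results of these data known, which limits this and the later p-values for the parts. The 2 ends were alike in number: 37 against 32 and 89 against 92 hotspots for Brg1, 39 against 39 and 90 against 90 for CHD4, and 30 against 30 and 55 against 56 for Snf2h, in the first end and the last end.

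**Figure D1:**
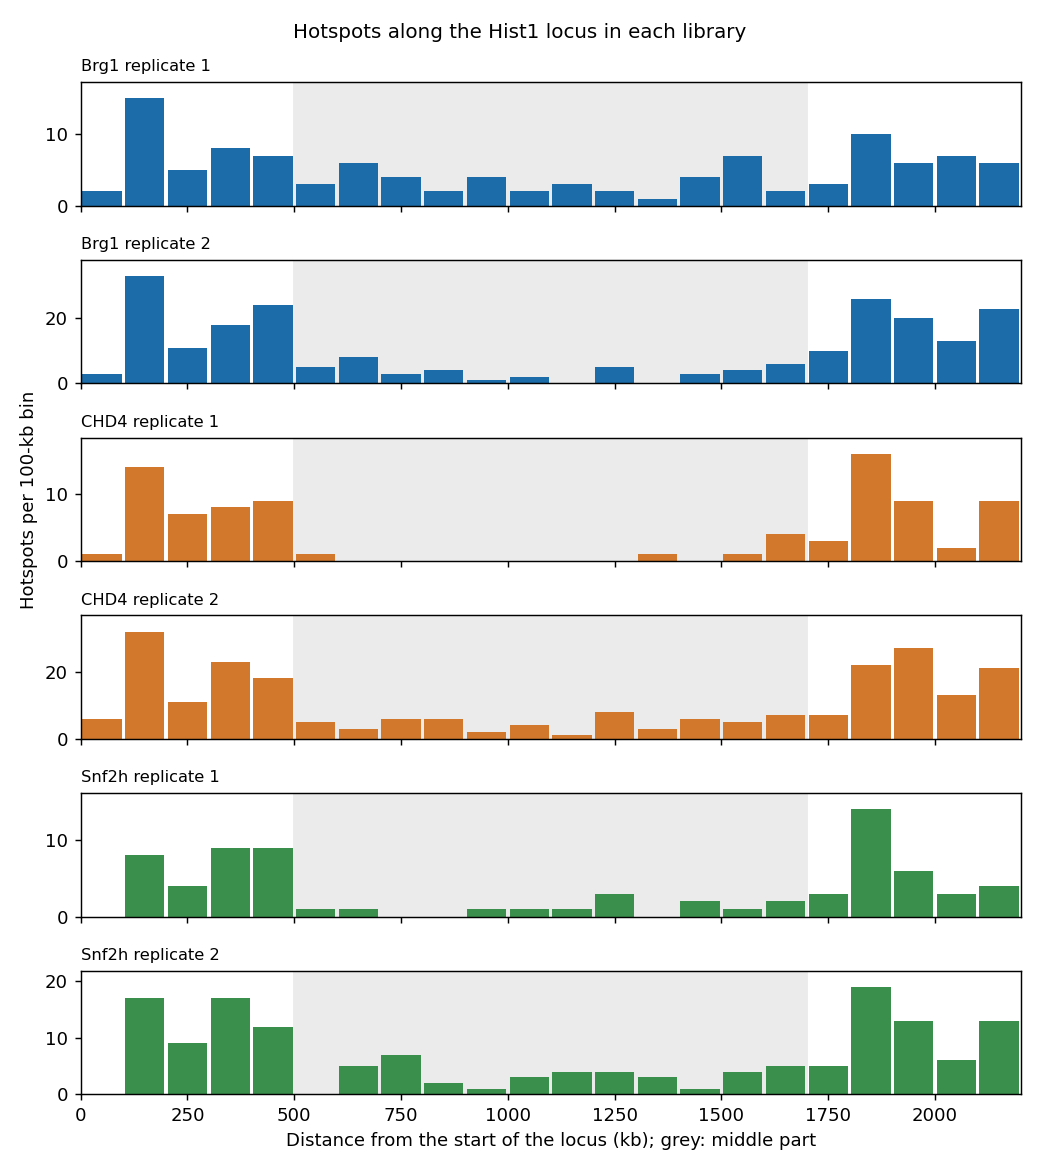
Hotspots per 100-kb bin (vertical axis, its own scale in each panel) against distance from the start of the locus in kb, 1 panel per library. The grey band is the 1.2 Mb middle, where the bars are lower than the tallest bars of the ends in every panel. In every panel some middle bars exceed that of the first bin of the first end, which held 12 hotspots over the 6 lists. The highest bar stands in the second bin for both Brg1 libraries and CHD4 replicate 2 (15, 33 and 32 hotspots). For CHD4 replicate 1 and both Snf2h libraries it stands in the second bin after the middle (16, 14 and 19).

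The crowding had a similar pattern along the locus in the 3 remodelers. Over the 22 bins of 100 kb, Spearman correlations between pairs of lists ran from 0.588 to 0.886 with a mean of 0.767. The mean was 0.779 for the 3 pairs of the same antibody and 0.764 for the 12 pairs of different antibodies, a description with no test, since the bins share the locus and the lists. The fullest bin was chr13:21800000-21899999, with 119 hotspots over the 6 lists. It held 15 and 33 for Brg1, 14 and 32 for CHD4, with 8 and 17 for Snf2h. The next was chr13:23500000-23599999, with 107 hotspots, of which 10 and 26 were of Brg1, 16 and 22 of CHD4 and 14 and 19 of Snf2h. These 2 bins stand in opposite ends. The third was chr13:22000000-22099999 with 83, and the emptiest was chr13:23000000-23099999 in the middle with 8. No bin was empty in all lists, but CHD4 replicate 1 had none in 8 bins, Snf2h replicate 1 in 4, and Brg1 replicate 2 and Snf2h replicate 2 in 2 each.

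The distances between regions show how empty the middle was of shared binding. The longest stretch without a hotspot of any list was 96.0 kb (chr13:22983685-23079710). The longest without a site found by both libraries of an antibody was 327 kb (chr13:22922283-23249684). Regions held by 5 or 6 lists left a stretch of 1106 kb free (chr13:22143546-23249684), which covers most of the middle. At the other extreme, 12 of those 51 regions stood within 66.8 kb of the last end (chr13:23492476-23559279).

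Against the rest of the genome, the locus as a whole was dense in some lists and ordinary in others. It held 49.5 and 100.9 hotspots per Mb for Brg1, 38.6 and 107 for CHD4 and 33.2 and 68.2 in the Snf2h lists. The rest of the genome held 44.8 and 100.9 for Brg1, 15.4 and 114 for CHD4, with 12.5 and 31.0 for Snf2h. Both Snf2h libraries, at 2.65 and 2.20 times the rest, and CHD4 replicate 1, at 2.50 times, were above it, whereas Brg1, at 1.11 and 1.00 times, and CHD4 replicate 2, at 0.943 times, were close to it. This contrast moved with list length and threshold: with the 32310 tallest hotspots of each list Brg1 stood at 0.580 and 0.435 times and CHD4 replicate 2 at 2.61 times, and with a common lowest Z score CHD4 replicate 2 stood at 2.12 times. The mean log2 ratio was 0.65 ± 0.70 (SD, n = 6), above 0 in 4 of 6 libraries, and the exact two-sided sign-flip permutation test gave p = 0.125. Among the 1158 windows of the same length that tile the genome outside the locus, its density ranked at percentile 65.5 and 41.9 for Brg1, 97.9 and 32.6 for CHD4 and 100 and 99.1 in the Snf2h lists.

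In each library the density of the ends was above, and that of the middle below, that of the locus as a whole. In the ends the density was 1.54 and 1.79 times the rest of the genome for Brg1, 5.06 and 1.58 times for CHD4, with 4.79 and 3.58 times for Snf2h. All 6 libraries were above 1, with a mean log2 ratio of 1.43 (exact sign-flip permutation p = 0.0312, two-sided, the smallest possible). In the middle it was 0.745 and 0.339 times for Brg1, 0.378 and 0.410 times for CHD4 and 0.865 and 1.05 times in the Snf2h lists. Snf2h replicate 2 was the library above 1 there, and the mean log2 ratio of -0.80 did not pass the same exact permutation test (p = 0.0625). The 2 libraries of CHD4 differed by over 3 times in the ends, and their lists differ in length and in the lowest Z score they keep. Whether the antibodies differ in the ends could not be decided: the exact permutation test over the 15 ways of pairing 6 libraries gave p = 0.533, and its smallest possible p is 0.0667.

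**Figure D2:**
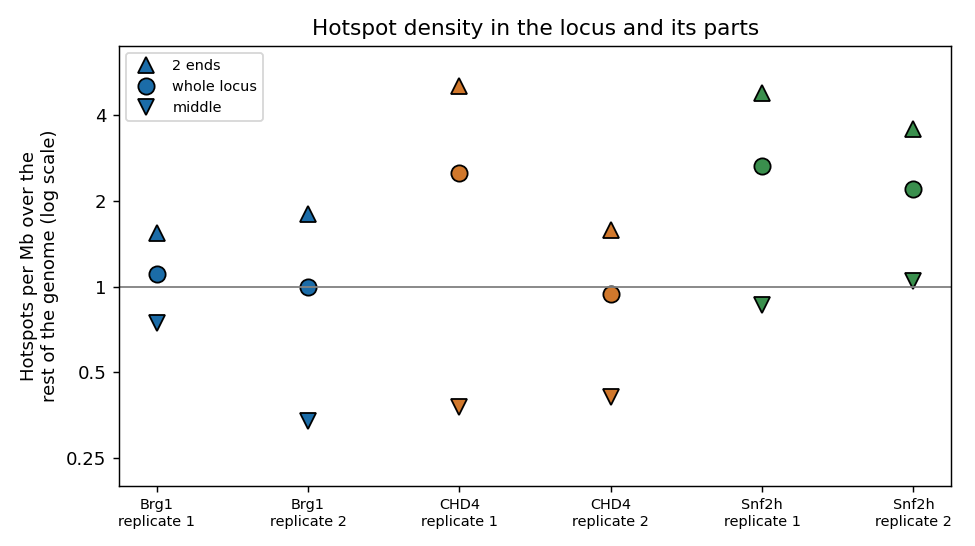
Hotspots per Mb over the rest of the genome (log scale) for the ends (up triangles), the whole locus (circles) and the middle (down triangles), by library. In each library the ends lie highest, from 1.54 to 5.06, and the middle lowest, from 0.339 to 1.05.

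The hotspots of the ends were also tall. Maximum tag density has no stated scaling between libraries, so each hotspot was ranked within its own list and given a percentile. The median hotspot of the ends stood at percentile 55.6 and 72.3 for Brg1, 59.4 and 85.3 for CHD4, with 85.8 and 74.5 for Snf2h. In the middle the medians were 15.6 and 24.6, 28.4 and 27.1, and 7.81 and 13.1 in the same order. Ends exceeded middle in 6 of 6 libraries, by 52.7 percentile points on average (exact two-sided sign-flip permutation p = 0.0312, the smallest possible). The middle therefore had hotspots that were few and, within every list, mostly low in maximum density. By Z score, the other value listed per hotspot, the middle was not lower for Brg1 or CHD4. Its medians were 14.0046 and 6.97 for Brg1 (13.9254 and 5.39 in the ends) and 14.26 and 5.91 for CHD4 (13.38 and 5.225). In the Snf2h lists they were lower, at 10.4 and 11.4 (15.8 and 20.6 in the ends). The difference in Z score was not tested.

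In the authors' own units the median maximum density of the ends was 16.8 and 5.22 for Brg1, 15.9 and 6.67 for CHD4 and 24.6 and 18.9 in the Snf2h lists. In the middle it was 7.24 and 2.53, 10.4 and 2.72, and 5.54 and 3.78. The drop was steepest in the Snf2h lists. Median widths fell likewise, from 385 to 292 bp and 473 to 382 bp for Brg1, 485 to 466 bp and 524 to 388 bp for CHD4, and 511 to 375 bp and 580 to 352 bp for Snf2h. Hotspots of the top decile of their list numbered 2 and 4 in the locus for Brg1, 10 and 66 for CHD4, with 26 and 31 for Snf2h, which is 1.83% and 1.80%, 11.8% and 28%, and 35.6% and 20.7% of the hotspots there. The middle held 0 of them except for 4 of CHD4 replicate 2 and 2 of Snf2h replicate 2. Over the whole locus the median percentile was 43.8 and 68.7 for Brg1, 59.4 and 78.7 for CHD4 and 80.7 and 64.5 in the Snf2h lists. It was above the list's midpoint of 50 in 5 of 6 libraries, by 16.0 points on average, and did not pass the exact permutation test (p = 0.0625). With lists of equal length the mean turned to -1.80 points, with Brg1 medians of 31.1 and 13.2.

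Replicated sites were counted next, a replicated site being a merged region that both libraries of 1 antibody had called. Of the 403 regions, 55 were replicated for Brg1 (13.6%, against 9.6% of all merged regions of the genome). CHD4 had 67 (16.6%, against 5.65%) and Snf2h 59 (14.6%, against 3.39%). With these full lists the share was above the genome's for all 3 remodelers, least for Brg1. In the 1158 windows, the count of replicated Snf2h sites had a median of 14 and was at or above 59 in 1 window. The Brg1 and CHD4 counts ranked at percentile 67.8 and 96.8 among them. With 1 library left out, so that the other is enough, the Brg1 count rose to 203 without replicate 1 and 107 without replicate 2. The CHD4 count was 222 without replicate 1 and 74 without replicate 2. The Snf2h count was 136 without replicate 1 and 69 without replicate 2. The genome's share was not computed with a library left out, so these counts do not show how the locus compares with it.

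At least 1 remodeler had a replicated site in 103 regions, 42 in the first end, 48 in the last end and 13 in the middle. The middle had more merged regions than either end, 152 against 124 and 127, but 80.3% of them came from a single list, against 54.0% and 46.5%. These single-list regions of the whole locus, 248 in all, came mostly from the longer lists: 44 and 77 from Brg1, 1 and 87 from CHD4 and 8 and 31 from Snf2h. They made up 61.5% of the locus and 76.6% of the rest of the genome. Regions held by 5 or 6 lists made up 12.7% of the locus and 4.50% of the rest.

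The combination whose share lay farthest above the genome's was CHD4 with Snf2h and no replicated Brg1 site. It took 28 of the 103 regions with a replicated site (27.2%, 95% Wilson interval 19.5% to 36.5%, which covers counting error only), against 3.45% in the genome. All 3 remodelers shared 19 regions (18.4%, 12.1% to 27.0%), close to the 17.1% of the genome. Brg1 with CHD4 took 7 (6.80% against 21.2% in the rest of the genome) and Brg1 with Snf2h 5 (4.85% against 3.53%). Brg1 by itself took 24 (23.3% against 41.9%), CHD4 by itself 13 (12.6% against 7.46%) and Snf2h by itself 7 (6.80% against 5.51%). With these lists the locus had a share of sites with all 3 remodelers near that of the genome, a larger one with CHD4 and Snf2h, and smaller ones with Brg1 by itself or with CHD4. Because the locus is a single place, these shares were described and not tested. In the 1158 windows of the same length the count of CHD4 and Snf2h regions without a Brg1 site had a median of 1 and a maximum of 13. Without Brg1 replicate 1, so that a hotspot of replicate 2 was enough, that count fell to 7 (3.20% of regions, against 0.135% in the genome) and the count of all 3 remodelers was 40 of 219 (18.3% against 4.74%). The nearness of the latter share to the genome's was lost with lists of equal length (2 of 65, 3.08% against 20.03%) and when 1 library was enough (78 of 403, 19.4% against 7.42%).

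**Figure D3:**
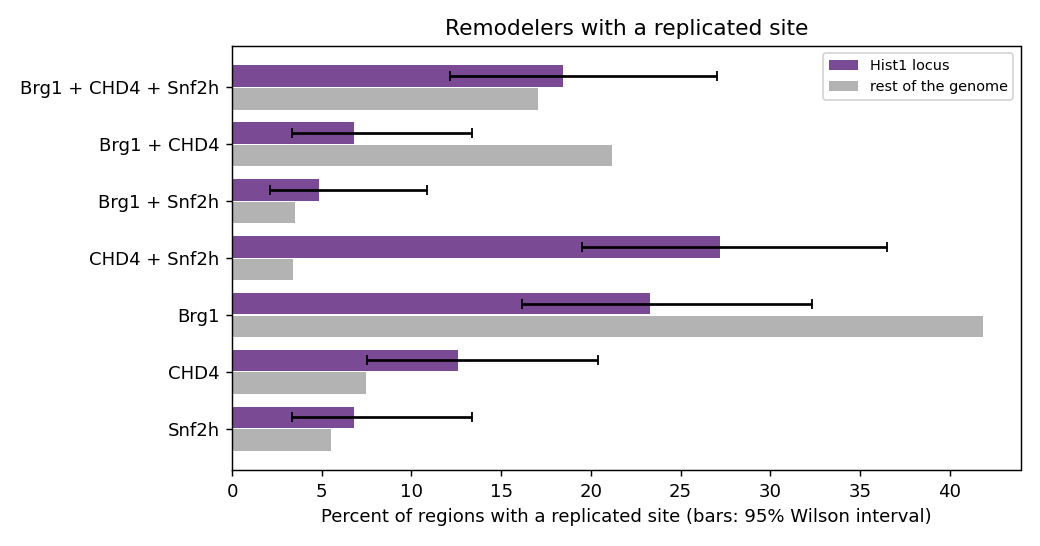
Percent of regions with a replicated site in each combination of remodelers, for the 103 regions of the locus (purple, with 95% Wilson interval) and the rest of the genome (grey). CHD4 with Snf2h stands at 27.2% against 3.41%, whereas all 3 remodelers stand at 18.4% against 17.1%.

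The CHD4 and Snf2h regions stood in both ends, 11 in the first and 14 in the last. The other 3 started in the middle, within 10 kb of its border with the last end, and chr13:23399323-23401613 crossed that border. By contrast 12 of the 19 regions of all 3 remodelers were in the first end, 6 in the last and 1 in the middle, while Brg1 by itself had 7, 12 and 5 in the first end, the last end and the middle. A second remodeler was present at 59 of the 103 regions (57.3%, 47.6% to 66.4%), against 45.2% in the rest of the genome. The share was 56.4% at Brg1 sites (49.95% in the rest), 80.6% at CHD4 sites (84.8%) and 88.1% at Snf2h sites (81.3%). It was present at 32.4% of regions without Brg1 replicate 1 and at 31.8% without CHD4 replicate 1, against 12.7% and 15.1% in the genome.

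In the locus, CHD4 and Snf2h sites coincided with each other more often than with Brg1 sites. Snf2h was replicated at 47 of 67 CHD4 sites (70.1% against 41.7% in the rest of the genome), and CHD4 at 79.7% of Snf2h sites (69.4%). Brg1 was replicated at 26 of 67 CHD4 sites (38.8% against 77.9%) and at 24 of 59 Snf2h sites (40.7% against 69.8%). Most CHD4 and Snf2h sites elsewhere thus held a replicated Brg1 site, and most of those in the locus did not.

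With the full lists, described first, the absence was mainly that of Brg1 replicate 1. With lists of equal length, given below, both Brg1 libraries were absent from most regions of CHD4 and Snf2h. At the 47 regions with both CHD4 and Snf2h, Brg1 replicate 1 had a hotspot in 20 (42.6%, 29.5% to 56.7%), against 83.9% over the genome. Brg1 replicate 2, whose list is longer and keeps lower Z scores, had one in 40 (85.1%, 72.3% to 92.6%), against 97.3% in the rest of the genome. So Brg1 signal was listed at most of these regions in 1 library and at fewer in the other. By position, replicate 1 held 13 of 23 in the first end, 1 of 4 in the middle and 6 of 20 in the last end, and replicate 2 held 19, 4 and 17. Of the 32 regions held by exactly 5 lists, Brg1 replicate 1 was the missing list in 21 (65.6% against 12.9% elsewhere), 7 in the first end, 3 in the middle and 11 in the last. Snf2h replicate 1, the shortest list, was missing in 5 (15.6% against 67.6% elsewhere).

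The count of CHD4 and Snf2h regions without Brg1 moved with how Brg1 was called. Without Brg1 replicate 1 it fell to 7, and without Brg1 replicate 2 it was 26 (16.9% of regions against 1.72% in the genome). With every list shortened to the 32310 tallest hotspots, the length of the shortest, Brg1 replicates 1 and 2 were at 4 and 6 of 36 regions of CHD4 and Snf2h (11.1% and 16.7%, against 80.1% and 84.2% in the rest of the genome). With a common lowest Z score they were at 11 and 14 of 26 (42.3% and 53.8%, against 91.1% and 94.9%).

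In height as in number, the CHD4 and Snf2h regions were strong sites of both. Their median percentiles were 73.2 and 95.1 in the CHD4 lists (47.2 and 87.0 at such regions elsewhere) and 90.3 and 90.8 in the Snf2h lists (70.3 and 76.2). Where Brg1 replicate 2 held them, at 21 of 28, its median was 75.6 (82.2 elsewhere), and Brg1 replicate 1 held 1 of the 28, at percentile 50.2. At the 19 regions of all 3 remodelers the medians were 61.6 and 85.8 for Brg1 (88.1 and 94.4 elsewhere), 75.1 and 94.9 for CHD4 (74.2 and 96.1) and 91.9 and 93.5 for Snf2h (75 and 86.8). Brg1 hotspots at these shared regions were thus lower in their lists than at shared regions elsewhere, and Snf2h hotspots higher.

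**Figure D4:**
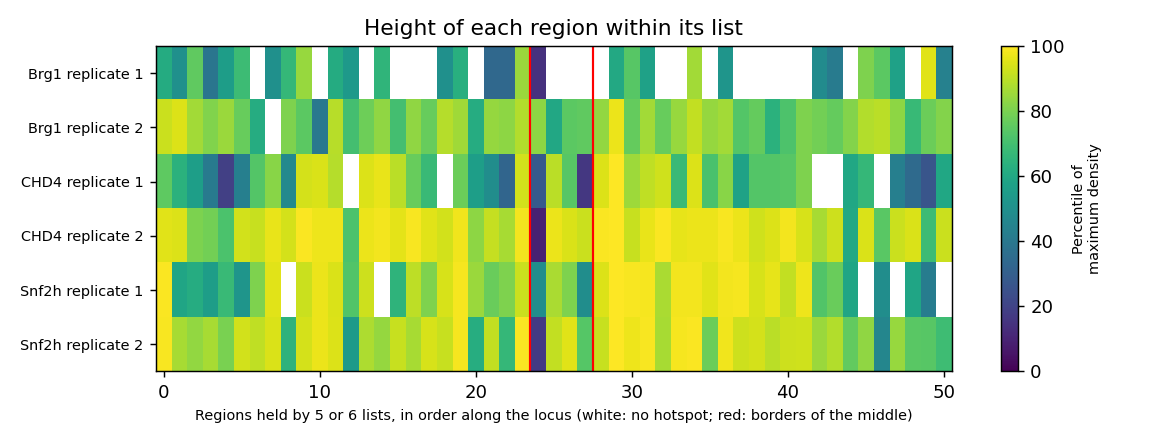
Percentile of maximum density within each list (colour, 0 to 100) for the 51 regions held by 5 or 6 lists, in order along the locus; white cells have no hotspot and red lines mark the borders of the middle. White cells are most frequent in the top line, Brg1 replicate 1, and 4 of the 51 regions start in the middle.

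A like comparison was made over the same regions in all lists. The 19 regions held by all 6 lists were ranked among the 10442 such regions of the genome, so that every library is judged on 1 set. Their median percentile was 10.1 and 13.5 in the Brg1 libraries, 51.6 and 40.9 in CHD4 and 80.7 and 68.6 in Snf2h. Above the midpoint stood 1 and 2 regions for Brg1, 10 and 8 for CHD4, with 12 and 13 for Snf2h. Both Brg1 libraries were low and both Snf2h libraries high, and the 2 pairs did not overlap. The exact permutation test over the 15 pairings gave p = 0.0667, the smallest it can give, so the difference between antibodies could not pass 0.05 in this design. Both Snf2h libraries outranked the other 4 at 10 of the 19 regions (52.6% against 21.6% over the genome), both CHD4 libraries at 1 (5.26% against 5.89%) and both Brg1 libraries at 0 (against 16.8%).

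**Figure D5:**
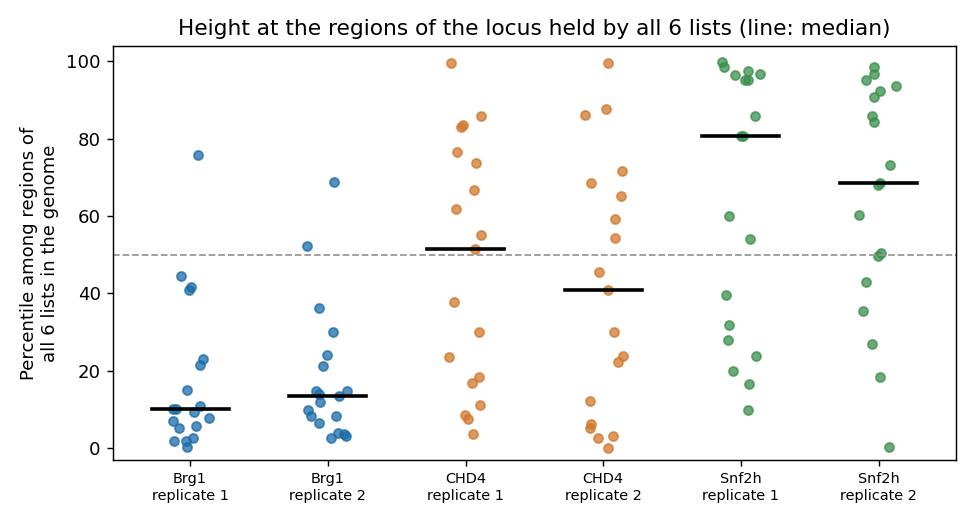
Percentile of maximum density at the 19 regions of the locus held by all 6 lists (points), ranked among the 10442 such regions of the genome, by library; black lines are medians and the dashed line is 50. The Brg1 medians lie at 10.1 and 13.5 and the Snf2h medians at 80.7 and 68.6.

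The region with the highest densities of those named was chr13:23493412-23494254, 843 bp wide and in the last end. Its maximum densities, in the authors' units, were 18.5 and 35.1 for Brg1, 73.5 and 50.7 for CHD4 and 94.9 and 115 in the Snf2h lists. These stood at percentile 60.2 and 97.1, 99.8 and 100.0, and 99.9 and 99.8 of the lists, so it was near the top of 5 lists and ordinary in Brg1 replicate 1. Directly beside it, chr13:23492476-23493209 had 36.1 and 24.7 for CHD4, with 33.9 and 34.3 for Snf2h. There Brg1 replicate 2 had 8.86 and Brg1 replicate 1 no hotspot. Both neighbours thus had tall CHD4 and Snf2h signal, lower at chr13:23492476-23493209, and a hotspot of Brg1 replicate 2. A hotspot of Brg1 replicate 1 was listed only at chr13:23493412-23494254.

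The region of all 6 lists with the highest mean percentile, 94.4, was chr13:23524205-23525403. Its densities were 42.9 and 14.9 for Brg1, 35.4 and 15.3 for CHD4 and 45.7 and 91.5 in the Snf2h lists, and no percentile was below 86.1. Below the region with the highest densities in that order stood chr13:22141978-22143545 in the first end, with 40.5 and 12.5 for Brg1, 33.3 and 18.0 for CHD4, with 29.8 and 80.9 for Snf2h. It is the last region of 5 or 6 lists before the long empty stretch. In the first end too, chr13:22006245-22007166 had 40.0 and 5.69 for Brg1, 33.6 and 24.0 for CHD4 and 29.8 and 38.1 in the Snf2h lists. It was the region that leaned most to CHD4, by a small margin. Ranked among the regions of all 6 lists in the genome, it stood at percentile 83.6 and 87.7 in CHD4. In Brg1 it stood at 41.0 and 2.76 and in Snf2h at 80.7 and 68.6. The lower CHD4 value was thus 2.88 points above the highest of the other libraries, Snf2h replicate 1. Shortly after it lay chr13:22008624-22009510, a CHD4 and Snf2h region with 34.7 and 16.6 for CHD4, 39.5 and 50.1 for Snf2h, 3.00 for Brg1 replicate 2 and none for replicate 1. A further region of all 6 lists, chr13:22010402-22011829, followed it, with 19.1 and 13.3 for Brg1, 28.1 and 16.6 for CHD4, with 33.2 and 41.6 for Snf2h. Regions with and without a Brg1 replicate 1 hotspot thus alternated over short distances.

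The region that leaned most to Snf2h was chr13:21801322-21803725, 2404 bp wide and made of 12 hotspots. Its densities were 61.6 and 70.9 for Snf2h, 20.5 and 12.8 for CHD4 and 19.1 and 16.8 for Brg1. On the common ranks the Snf2h libraries stood at 98.6 and 92.4, and the highest of the other 4 libraries at 51.6. Snf2h was replicated by itself at chr13:22065828-22067178, with 53.3 and 66.2, at percentile 99.1 and 98.6 of the lists. That region also held a hotspot of Brg1 replicate 2 at 11.2 and of CHD4 replicate 2 at 16.8, each without its partner library. A single-remodeler class therefore does not mean that the other remodelers are absent.

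The 2 highest regions with Brg1 replicated by itself stood lower in their lists than the Snf2h region chr13:22065828-22067178. Over the whole classes neither remodeler was lower in both libraries. The medians were percentile 53.9 and 70.0 for Brg1 by itself and 64.9 and 52.8 for Snf2h by itself. The region chr13:22097360-22098651 had 46.9 and 9.49 for Brg1, at percentile 87.8 and 84.9, with CHD4 replicate 2 at 9.88 and Snf2h replicate 2 at 13.2. The region chr13:23746114-23746627 had 38.2 and 9.33 for Brg1 and no hotspot of another list. For CHD4 by itself, chr13:23517037-23517880 had 25.3 and 16.6, next to chr13:23516188-23516877, a region of all 6 lists where Snf2h reached 49.9 and 75.7. Brg1 with CHD4 was led by chr13:22036028-22037595, with 20.8 and 8.70 for Brg1 and 40.2 and 18.3 for CHD4. Brg1 with Snf2h was led by chr13:22118102-22119212, with 15.1 and 12.7 for Brg1 and 32.6 and 34.3 for Snf2h.

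In the middle, 4 regions were held by 5 or 6 lists, each region being placed by its start. The tallest 2 were neighbours near its border with the last end. The first, chr13:23390475-23391512, had 28.8 and 15.3 for CHD4, 25.6 and 32.9 for Snf2h and 3.95 for Brg1 replicate 2. The second, chr13:23391583-23392382, had 20.1 and 11.6 for CHD4, 22.2 and 43.5 for Snf2h and 5.69 for Brg1 replicate 2. Neither had a hotspot of Brg1 replicate 1. Another CHD4 and Snf2h region, chr13:23399323-23401613, started in the middle and crossed the border into the last end. The only region of all 6 lists in the middle, chr13:23249685-23250185, was low: 6.95 and 8.38 for Brg1, 10.4 and 2.22 for CHD4 and 13.9 and 4.26 in the Snf2h lists. Its mean percentile was 33.4, against 63.2 for the next lowest region of all 6 lists, chr13:21841830-21842892. Farther inside the middle, the third highest by percentile was chr13:22962076-22962564, a hotspot of CHD4 replicate 2 alone at 5.19.

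The density of the locus did not extend evenly past its borders. In the 2.2 Mb before it the density was 1.11 and 1.21 times the rest of the genome for Brg1, 1.21 and 1.13 times for CHD4, with 1.23 and 1.22 times for Snf2h. In the 2.2 Mb after it the values were 1.03 and 1.27, 0.619 and 1.10, and 0.617 and 0.894. For CHD4 replicate 1 and both Snf2h libraries these flanks were below the locus itself, and for Brg1 and CHD4 replicate 2 they were similar to it or above. At the borders, the first region inside was a hotspot of CHD4 replicate 2 at chr13:21701438-21701689 (density 1.98), and the last outside before it was another at chr13:21698624-21699056 (2.72). The last inside was a hotspot of Snf2h replicate 1 at chr13:23884369-23884750 (11.8), and the first outside after it was 1 of Brg1 replicate 2 at chr13:23901664-23901978 (3.32).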

How the data were processed

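The data are chromatin immunoprecipitation sequencing of Brg1, CHD4 and Snf2h in 3134 cells. The submitters' processing notes name CASAVA 1.6 and the build mm9. The deposited lists give 2 kinds of value per hotspot, per the file headers: tag density (MaxD and AveD), a signal with no stated scale, and a Z score. The deposited p-value of a hotspot was not used for tests. The sources used here do not give the hotspot caller, the thresholds, the use of inputs or the immunoprecipitation protocol; the labels describe a DNase I assay of lines with dominant-negative remodelers. Tag depth per library is unknown.

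Closed intervals overlapping by at least 1 bp were merged over the 6 lists. Densities were compared as ranks within a list. Tests were exact sign flips over 6 libraries and exact permutations over 15 pairings, with Python 3.11.15, numpy 2.4.6, scipy 1.17.1, pandas 2.3.3 and matplotlib 3.10.9, tested on simulated data. Regions were named by rule: the 6 highest and 2 lowest by mean percentile of those in all 6 lists, the 2 highest of each smaller class, the most leaning to each antibody, the 3 highest of the middle and those at the borders; the other regions of 5 or 6 lists in the middle were named after their values were seen. The printed promoters are examples chosen after their letters were seen. The locus, its parts and the lists were chosen with earlier results of these data known. Counting gene starts near hotspots had been planned and was not run, because no mm9 annotation was used. Alternatives were the taller 50% of each list, equal lengths, a common Z score of 9.49, other overlaps, bins and end lengths, sites of either library, leaving out each library and a replicate block; the counts of CHD4 and Snf2h without Brg1 under them were added after seeing the data.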

Additional observations from a re-analysis of the deposited data

Results flagged for a closer look

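Over the 19 regions held by all 6 lists, the median common percentile of the Snf2h libraries exceeded that of the Brg1 libraries by 62.9 points. It stands out because both Brg1 libraries lay below the midpoint and both Snf2h libraries above it. The exact permutation test over the 15 pairings gave p = 0.0667, the smallest possible, and covers the 3 antibodies together; the difference of this pair was not tested by itself.

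With each list shortened to 32310 hotspots, the density of the locus over the rest of the genome moved apart by antibody: both Brg1 libraries fell below 1, at 0.580 and 0.435, while CHD4 stood at 2.90 and 2.61 and Snf2h at 2.65 and 2.94. The mean log2 ratio was 2.46 higher for CHD4 than for Brg1, and 2.48 higher for Snf2h than for Brg1. All libraries of 1 antibody lay on the opposite side of 0 from those of the other in both cases. The differences of these pairs were not tested; over the 3 antibodies the exact permutation p was 0.133.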

How the results depend on the processing

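The ends exceeded the middle under all alternatives that gave a value. Leaving out 1 library at a time gave mean log2 ratios of middle to ends from -2.47 to -1.93, each with an exact permutation p of 0.0625, the smallest 5 libraries allow, so the call is lost by construction. Lists of equal length gave no value, because both Brg1 lists then had 0 hotspots in the middle. With a common Z score the density of the locus over the genome passed the test (0.90 on the log2 scale, exact permutation p = 0.0312), and without 1 library it ran from 0.50 to 0.80. The height of the locus reversed with lists of equal length (-1.80 percentile points) and ran from 13 to 20.4 without 1 library. The antibody difference in density, a sum of squares of 1.44, had an exact permutation p of 0.533, and with a replicate block p = 0.5 (smallest possible 0.167). Same-numbered libraries did not deviate together over bins (r = -0.189, -0.147 and 0.0340). The bin correlation ran from 0.737 to 0.815 without 1 library.

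Counts of sites moved more. Regions with a replicated site were 65 with equal lengths and 403 when 1 library was enough, and 110 to 236 when a library was left out (219, 236 and 158 when the first replicate of Brg1, CHD4 or Snf2h was dropped). Regions of all 3 remodelers were 12 in the taller 50% (14.8% of regions with a site, 15.4% in the genome), 2 with equal lengths (3.08%, 20.03%), 9 with a common Z score (12.9%, 17.4%), 78 when 1 library was enough (19.4%, 7.42%), and 18 to 40 without a library (40, 18.3%, against 4.74%, without Brg1 replicate 1). A second remodeler was present at 35.2% when 1 library was enough (21.5% in the genome). Without a library the share ran from 31.8% (15.1% in the genome, without CHD4 replicate 1) to 54.5% (43.4%, without CHD4 replicate 2). Regions of CHD4 and Snf2h without Brg1 numbered 17 with a common Z score (24.3% of regions with a site, 2.20% in the genome). Without a library they numbered from 7 (3.20%, 0.135% in the genome, without Brg1 replicate 1) to 37 (23.4%, 4.15%, without Snf2h replicate 1). Their share was 52.3% with equal lengths (7.04% in the genome), 5.21% when 1 library was enough (1.2%), and 3.20% to 27.3% without a library (13.1% without CHD4 replicate 1). The unknown tag depth limits what the absence of a hotspot shows.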
